A study of Mus musculus with 14 samples.

Results

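The comparison described here is that of activated B cells from mice whose PU.1 gene lost its miR-155 site with the same cells from wild type mice, across all genes. It took the 5 PU1_KI libraries and the 4 WT libraries of a series of 14, and within them the 9394 of 22295 gene rows that held at least 1 RPKM in at least 4 of the 9 libraries. RPKM divides the reads of a gene by its length in kilobases and by the reads of the library in units of 1000000, so it is a level per length of gene. The cells were spleen B cells isolated by negative selection. They grew for 96 h with both LPS (5 µg/ml) and IL-4 (10 ng/ml). Polyadenylated RNA was sequenced from biological replicates, 4 or 5 for each genotype. The WT mice are labelled wild type. The PU1_KI mice carry PU.1 155-/155- on both copies, an allele of the whole animal, so the site was missing in every cell type and not only in B cells. The miR-155-/- mice (miR155_KO, 5 libraries) were used where PU1_KI was set against them directly. Their libraries also served to describe a library pattern and entered an alternative fit of all 14 libraries. All 3 groups received the same stimulation, and no unstimulated cells are among them. Strain, sex and age of the mice are not given in the labels.

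MicroRNAs pair through their seed with sites in the 3′ untranslated regions of transcripts and lower the stability and translation of those transcripts. miR-155 is induced when B cells are activated, and PU.1, an ETS family transcription factor that guides myeloid and B cell development, is among its known targets. In B cells treated with LPS and IL-4, division and antibody class switching begin and a share of the cells turns into antibody-secreting plasmablasts, a step driven by Irf4, Prdm1 and Xbp1 and opposed by Pax5, Bach2 and Bcl6. The sequences below show the microRNA and the site that the mutation concerns. The seed is in capitals in the microRNA (mature sequence from RefSeq, GRCm38.p6, chromosome 16 from 84714143 to 84714165, plus strand), and in capitals in the transcript is its only 8mer match, bases 43 to 50 of the 362-base 3′ UTR of Spi1, the current name of Sfpi1 (GENCODE M21 transcripts on GRCm38, chr2:91115421-91115450, plus strand). The labels do not give the altered bases of the mutant allele.
mmu-miR-155-5p: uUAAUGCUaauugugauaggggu
Spi1 3′ UTR: ggaccccgccggccatAGCATTAAcccgtc

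Sfpi1, the gene of PU.1, nearly doubled its RNA level in the mutant. The WT libraries held 9.73, 12.5, 13.2 and 12.6 RPKM and the PU1_KI libraries 21.1, 22.5, 25.6, 26 and 23.3 RPKM. Every mutant library lay above every WT library. The log2 difference was 0.96 ± 0.08 (SE, adjusted p = 4.91e-07), and an exact permutation test over the 9 libraries gave p = 0.0159, the smallest that 4 against 5 libraries allow. Its position in the table (build NCBIM37, plus strand) is chr2:90922547-90955913.

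Few genes beside Sfpi1 changed. Of the 30 other rows tested within 5 Mb, 1 rose and 1 fell, 6.67% against 26.1% of all rows tested. The riser was Phf21a (0.35 ± 0.07, adjusted p = 0.00115), and the row that fell was 1110051M20Rik (-0.33 ± 0.09, adjusted p = 0.0167). The call of 1110051M20Rik was lost without WT replicate 2 (-0.31), with no filter, with all 14 libraries in 1 fit and with PU1_KI libraries 1 and 2 alone (-0.11), where Phf21a had no call either (0.23). The genes closest to Sfpi1, Slc39a13 and Psmc3, differed by 0.17 ± 0.07 and -0.03 ± 0.06 (adjusted p = 0.089 and 0.734). The median over the 30 rows was 0.07, that of all rows, and with libraries scaled by the median of ratios 1 rose and 4 fell.

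Depth recovered from the steps of the RPKM values was 35.2 to 44.0 M reads in WT and 31.4 to 47.0 M in PU1_KI. RPKM summed to 192433 to 214376 in WT and 201532 to 236181 in PU1_KI, and the median row was higher in PU1_KI by 0.07 on the log2 scale. Counts of all rows and of gene lists are therefore given first for the values as deposited and then after median-of-ratios scaling, and a count with no second value is as deposited. The scaling brought that median to -0.01 and lowered differences by about the amount between them. B cell markers summed to 6377 to 7269 RPKM in WT and 6932 to 8022 in PU1_KI, with Cd79a at 476 ± 41.4 and 491 ± 29.9 RPKM. Markers of NK cells, neutrophils, mast cells and erythroid cells each summed to 1.03 RPKM or less in every library of either group, and those of stroma to 7.72 or less. T cell markers summed to 52.5 to 56.3 RPKM in WT and 42.8 to 51.0 in PU1_KI, and their 2 tested members, Thy1 and Lck, fell by 0.25 ± 0.06 and 0.23 ± 0.07 on the log2 scale, Lck with no call without WT replicate 2 (-0.20) or 3 (-0.21). In these bulk samples, fewer cells of a type and less RNA per cell cannot be told apart.

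Across all rows, 2454 of 9394 passed limma's test at an adjusted p under 0.05, or 26.1%. Of these, 2043 were higher in PU1_KI (21.7%) and 411 lower (4.38%). With median-of-ratios scaling 3247 passed (34.6%), and 1667 were higher (17.7%) and 1580 lower (16.8%), so the balance of rises and falls depends on the scaling. A total of 1659 rows rose and 410 fell under both, and 0 went in opposite directions. Most changes were small: at 1.5-fold or more, 206 rows rose (2.19%) and 48 fell (0.511%), or 147 (1.56%) and 71 (0.756%) with scaling. As deposited, at 2-fold or more 38 and 8, and at 3-fold or more 4 and 1, the latter being Gm10800, in which the groups overlap and the call was lost with no filter or with PU1_KI libraries 1 and 2 alone. The share of rows called was 25.4%, 26.8% and 26.2% in the lowest, middle and highest tercile by level. The 2 groups did not overlap in 1690 rows with PU1_KI higher (18.0%) and in 352 with PU1_KI lower (3.75%). Of the rows tested, 73 reached 1 RPKM in no WT library, with 68 called higher, and 11 in no PU1_KI library, with 10 called lower. Such rows passed the filter through the group where they are high, and their calls are no support for a direction. The counts of all rows above include them.

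**Figure D1:**
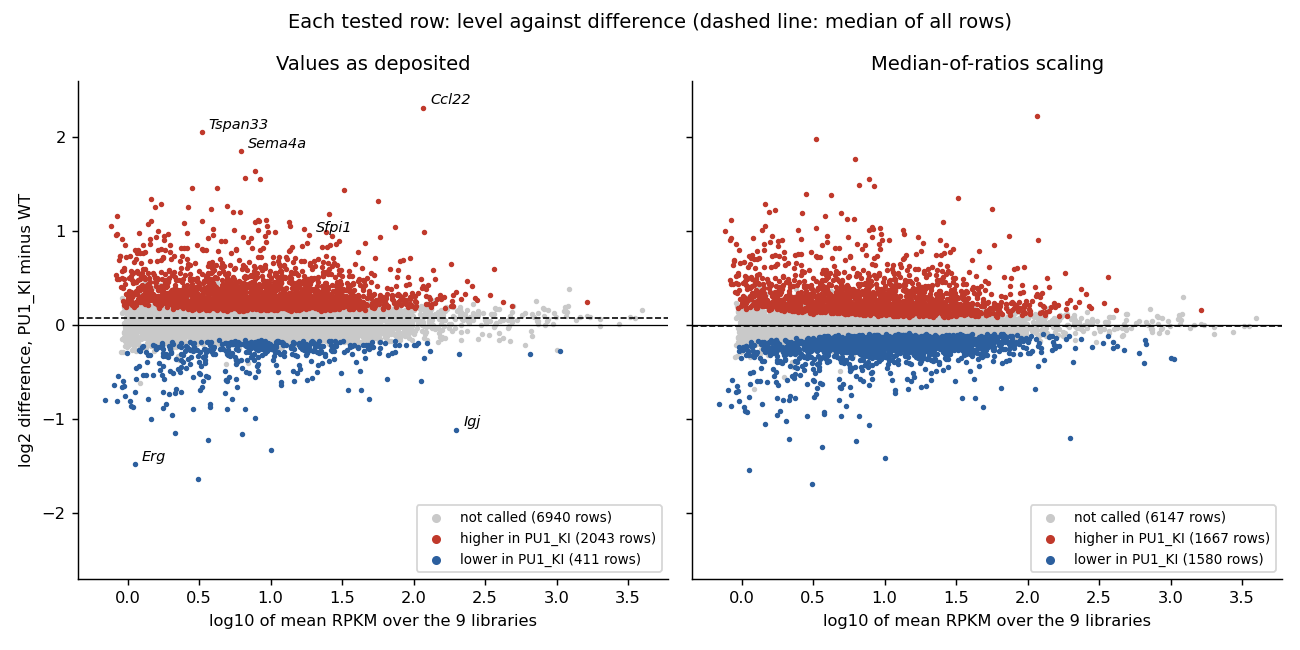
Each point is 1 of the 9394 rows tested, with log10 of its mean RPKM over the 9 libraries on the x axis and its log2 difference, PU1_KI minus WT, on the y axis, as deposited (left) and after median-of-ratios scaling (right). Red points were called higher, blue points lower; the dashed median line sits at 0.07 on the left and at -0.01 on the right, where the calls are nearly even at 1667 higher and 1580 lower.

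The PU1_KI libraries did not form 1 even group. In 20 rows the libraries 1 and 2 stood apart from 3, 4 and 5 by 1.5-fold or more, and in 19 of these libraries 1 and 2 were the higher. In all 19 the miR155_KO libraries 1 and 2 also lay above 3, 4 and 5. AF085738 shows the pattern: 10.6, 9.57, 2.75, 4.53 and 3.96 RPKM in the PU1_KI libraries 1 to 5, against 14.9, 18.2, 11.9 and 14.8 in WT. It was called lower than WT with all 5 libraries (-1.33 ± 0.27), but the difference was -0.53 with libraries 1 and 2 alone and -1.87 with 3, 4 and 5 alone. Of the 48 rows called lower by 1.5-fold or more, 15 belong to this set, among them Snx22, A530088E08Rik, Gm5577, Gpr15, Ptger1 and mt-Nd6. In the table's coordinates 15 of the 19 rows (78.9%) overlap a row of the opposite strand with a higher level, against 5.96% of all rows tested. The labels do not state whether reads were counted by strand, so reads of overlapping genes may not have been told apart, and the part of this in the falls was not tested. Which libraries shared a sequencing pool or culture day is not given either.

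For this reason each count was also made against WT with the PU1_KI libraries 1 and 2 alone and with 3, 4 and 5 alone, a choice made after the pattern was seen. With libraries 1 and 2 alone, 921 rows (9.8%) were called (614 higher, or 6.54%, and 307 lower, or 3.27%). With 3, 4 and 5 alone 2902 (30.9%) were called (2618 higher, or 27.9%, and 284 lower, or 3.02%). Both subsets called 607 rows higher and 187 lower, and 0 rows were called in opposite directions. Sfpi1 rose in each, by 0.85 and 1.03 on the log2 scale. The 2 numbers given below for some of the lists as "libraries 1 and 2" and "libraries 3 to 5" are the counts from these 2 fits. The first has fewer libraries, though it called more rows lower (307 against 284). In Gm20496, a row of the library pattern, WT held 8.91, 12.6, 9.39 and 10.3 RPKM and PU1_KI 9.52, 9.34, 2.50, 3.80 and 3.10. No WT library there had the low level of PU1_KI libraries 3 to 5. In the fits that hold libraries 3 to 5, such a pattern and the genotype cannot be told apart. Besides those whose losses stand beside them, Elk3, Elk4, Elf4, Cd72, Cd93, Cxcr5, Tap1, Psmb8, Nfkb2, Irf9, Rac2, Rfxank, Ctsb, Bst2, Fcer2a, Il4i1 and Tspan3 had no call with libraries 1 and 2 alone, and Lck and Ly6c2 none with 3 to 5 alone.

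The largest rises were of genes for a chemokine, a semaphorin, a tetraspanin and surface receptors. Ccl22, a chemokine that attracts regulatory and helper T cells, went from 29.8, 37.4, 33.6 and 43.7 RPKM in WT to 163, 169, 162, 199.9 and 209 RPKM in PU1_KI. The groups did not overlap, with a log2 difference of 2.31 ± 0.10 (adjusted p = 2.30e-10). Tspan33, a tetraspanin found on activated B cells, stood at 0.955, 0.869, 0.908 and 0.761 RPKM in WT and 4.99, 4.97, 4.33, 5.6 and 6.22 in PU1_KI (2.05 ± 0.08, adjusted p = 1.36e-10). It was below 1 RPKM in every WT library, so it was tested through its mutant level alone. Sema4a, a membrane semaphorin that acts on T cells, was at 1.81, 2.6, 2.29 and 2.26 RPKM in WT and 8.26, 9.37, 9.76, 9.79 and 9.57 in PU1_KI (1.85 ± 0.08, adjusted p = 1.36e-10). Wdfy1, which links Toll-like receptors to the adaptor TRIF, rose from 3.46, 3.17, 3.37 and 3.19 to 10.1, 11.7, 11.5, 11.4 and 12 RPKM (1.64 ± 0.06, adjusted p = 4.42e-11). In none of these 4 genes did a mutant library fall within the WT range.

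The other 8 of the 12 largest rises were Cd300lf (1.57 ± 0.07), Car2 (1.56 ± 0.12), Lrrc25 (1.46 ± 0.08), Xkrx (1.46 ± 0.08), Ccl5 (1.44 ± 0.13), Pla1a (1.35 ± 0.09), Cfp (1.32 ± 0.08) and Fcgr4 (1.29 ± 0.10), all log2 differences with their SE. Pla1a, like Tspan33, was below 1 RPKM in every WT library, and Fcgr4 in every WT library but replicate 4. Car2 encodes carbonic anhydrase, Cfp properdin, the positive regulator of complement, and Pla1a a phospholipase. In absolute level the 8 largest rises included Ccl22 and genes of very abundant transcripts, such as Aldoa (286 ± 18.1 to 433 ± 16.2 RPKM), Psap (139.8 ± 8.88 to 219 ± 13.4 RPKM), the IgE receptor Fcer2a (299 ± 16.7 to 375 ± 43.2 RPKM) and the amino acid oxidase Il4i1 (195 ± 39.1 to 266 ± 24.6 RPKM), with SDs over 4 and 5 libraries.

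Among the falls without overlap between the groups, Erg was the steepest. This ETS factor of blood stem cells and endothelium stood at 2.08, 1.88, 1.98 and 2.11 RPKM in WT and 0.468, 0.356, 0.406, 0.335 and 0.435 in PU1_KI (-1.48 ± 0.07, adjusted p = 8.86e-10). No PU1_KI library reached 1 RPKM, so it was tested through its WT level alone. Egfl7, a secreted factor of endothelium whose intron hosts a microRNA, fell from 8.86, 9.5, 8.53 and 10.1 to 3.82, 3.76, 3.63, 4.29 and 3.84 RPKM (-1.16 ± 0.06, adjusted p = 3.18e-09). Igj, the J chain that joins secreted IgM, fell from 250.5, 318, 309 and 249 to 142, 132, 145, 159 and 81.8 RPKM (-1.12 ± 0.15, adjusted p = 3.46e-05). All 3 genes were lower in each mutant library than in any WT library. The remaining largest falls besides the rows of the library pattern were P2rx3 (-1.22 ± 0.11), the adhesion receptor Cd96 (-1.14 ± 0.09), the blood progenitor gene Hemgn (-0.89 ± 0.06), the selenium carrier Sepp1 (-0.89 ± 0.07) and Nlrc3, an inhibitor of innate sensing (-0.88 ± 0.07). Erg, Egfl7 and Igj also fell with libraries 1 and 2 alone and with 3 to 5 alone, Erg by 1.46 and 1.49, Egfl7 by 1.18 and 1.14 and Igj by 1.02 and 1.18 on the log2 scale.

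**Figure D2:**
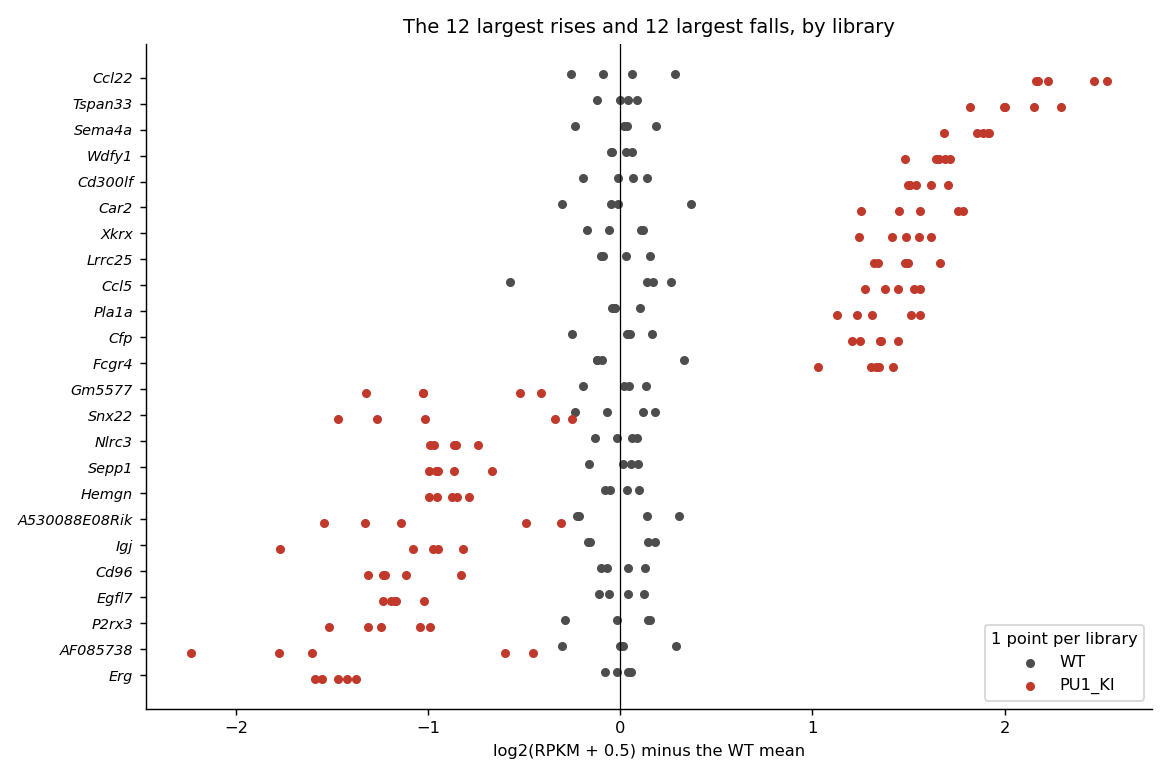
Each row is 1 of the 12 genes with the largest rise or the 12 with the largest fall among those whose groups do not overlap; points are single libraries (WT grey, n = 4; PU1_KI red, n = 5) and the x axis is log2(RPKM + 0.5) minus the WT mean. By mean difference Ccl22 leads the rises (2.31) and Erg the falls (-1.48), and in AF085738, Snx22, A530088E08Rik and Gm5577 PU1_KI points fall in 2 clumps.

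PU.1 belongs to the ETS family, and 17 of its 25 genes in the table were tested. Of these 6 rose and 2 fell, as deposited and with scaling, and the median difference was 0.11. Counts of gene lists are set here and below against all rows, of which 21.7% were higher and 4.38% lower (17.7% and 16.8% with scaling). Besides Sfpi1 the risers were Etv5, Etv6, Elk3, Elk4 and Elf4. Etv5, an activator of the PEA3 group, held 2.21, 2.1, 2.15 and 2.46 RPKM in WT and 4.13, 4.26, 4.28, 4.76 and 3.91 in PU1_KI (0.80 ± 0.07, adjusted p = 2.34e-07). Ets1, which restrains plasma cell formation, fell from 20.5, 20.1, 21.2 and 21.8 to 16.3, 16.8, 18.5, 19.4 and 15.7 RPKM (-0.27 ± 0.07, adjusted p = 0.00725), and Erg was the other that fell. Neither Etv5 nor Ets1 values overlapped between the groups. Spib, the closest relative of PU.1 in B cells, was level at 70.6 ± 7.25 RPKM in WT and 70.6 ± 5.7 in PU1_KI (difference 0.00 ± 0.08).

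Regulators of B cell fate moved in part, with 12 of 34 tested higher and 4 lower, or 8 and 7 with scaling. Libraries 1 and 2 gave 7 and 4, and libraries 3 to 5 gave 12 and 4. On the B cell side, Pax5 rose slightly, with 32.3, 37.3, 37.4 and 36.3 RPKM in WT and 39.7, 41.1, 49, 45.5 and 43.4 in PU1_KI (0.28 ± 0.07, adjusted p = 0.00719). With libraries 1 and 2 alone its difference was 0.17 and no longer passed (adjusted p = 0.196), and with 3 to 5 it was 0.36. Lmo2, a partner of haematopoietic factors, rose more, from 63.9, 70.8, 70.0 and 72.4 to 97.8, 117, 113, 120.2 and 122 RPKM (0.71 ± 0.07, adjusted p = 2.10e-06). Ebf1 (0.39 ± 0.06) and Aff3 (0.43 ± 0.06) rose also, while Pou2af1, the coactivator of octamer factors, stood at 350.4 ± 24.8 and 381 ± 33.6 RPKM with no call.

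Among factors of activated and germinal centre B cells, Bach2 rose and Bcl6 fell. Bach2, which holds back Prdm1, was at 4.49, 4.59, 4.86 and 4.84 RPKM in WT and 5.84, 6.29, 6.64, 6.53 and 6.16 in PU1_KI (0.39 ± 0.06, adjusted p = 9.87e-05). Bcl6 was at 7.82, 8.58, 9.29 and 8.53 RPKM in WT and 6.06, 6.68, 7.27, 6.74 and 7.35 in PU1_KI (-0.31 ± 0.07, adjusted p = 0.00264). Batf, needed for class switching, rose by 0.60 ± 0.09, and Irf8 differed by -0.14 ± 0.08, which did not pass as deposited but did after scaling (-0.22 ± 0.07, adjusted p = 0.023).

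On the plasma cell side the factors split. Irf4 rose from 35.1, 38.2, 38.3 and 39.8 to 45.5, 45.8, 51.8, 58.3 and 45.9 RPKM (0.38 ± 0.08, adjusted p = 0.0017). Xbp1, which enlarges the secretory machinery, fell from 125, 137, 141 and 134 to 103, 101, 111, 120.1 and 92.2 RPKM (-0.35 ± 0.07, adjusted p = 0.00245), and Prdm1 from 5.59, 5.83, 6.25 and 5.77 to 4.75, 4.64, 4.78, 5.56 and 3.38 RPKM (-0.33 ± 0.09, adjusted p = 0.0179). Irf4 lay above, and Xbp1 and Prdm1 below, the WT range in each mutant library. The call of Prdm1 was lost when all 14 libraries shared 1 fit and when no filter was used, each with a difference of -0.33. Zbtb32, a repressor of plasma cell responses, rose by 0.45 ± 0.07, and Id2 fell (-0.53 ± 0.09).

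**Figure D3:**
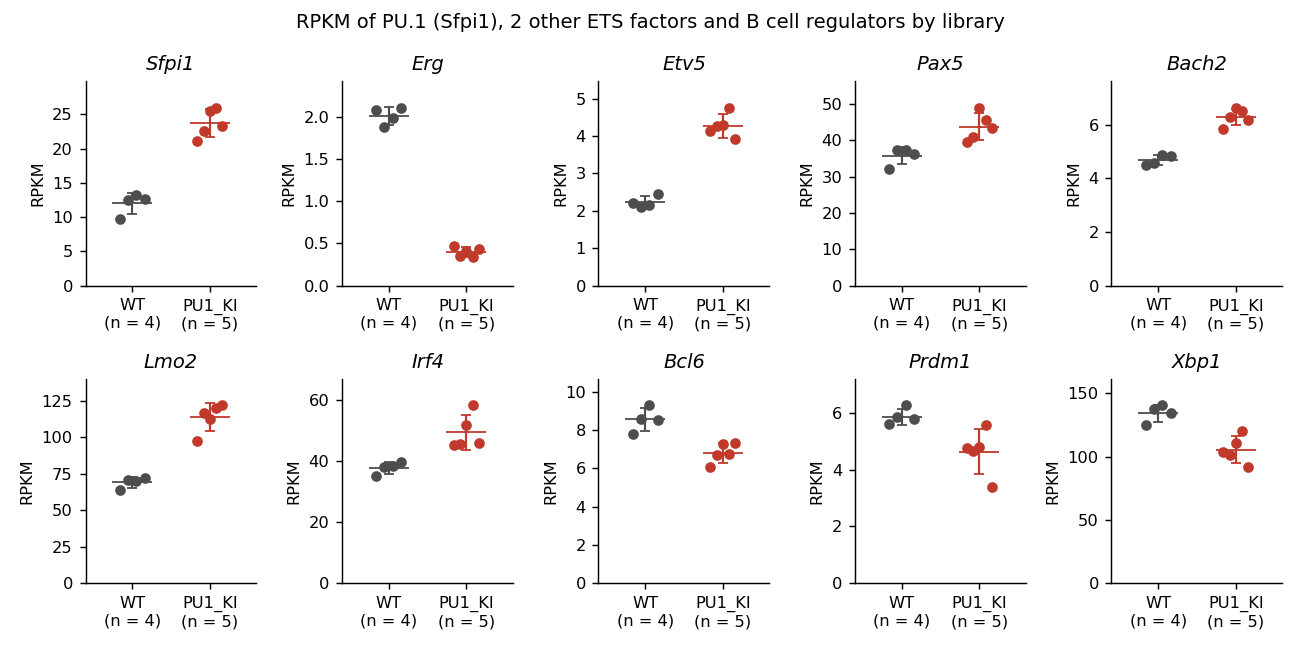
RPKM (y axis, from 0) of Sfpi1, the ETS factors Erg and Etv5 and 7 B cell regulators in each WT (grey, n = 4) and PU1_KI (red, n = 5) library, with bars for the mean and SD. In all 10 panels the points of the 2 genotypes do not overlap: Sfpi1, Etv5, Pax5, Bach2, Lmo2 and Irf4 are higher and Erg, Bcl6, Prdm1 and Xbp1 lower in PU1_KI.

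Products of plasma cells were lower on balance, with 7 of 23 tested genes lower and 4 higher (3 higher and 14 lower with scaling) and a median of -0.14 where the median of all rows was 0.07. Libraries 1 and 2 gave 1 higher and 8 lower, and libraries 3 to 5 gave 5 and 5. Leaving out single libraries gave 2 to 5 higher, with 2 when any of WT 1, 2 and 3 or PU1_KI 2 to 5 was left out. In the folding and secretion of antibody and the switch to its secreted transcript 5 of 13 genes fell and 0 rose (10 and 0 with scaling): after Igj came the prolyl isomerase Fkbp11 (-0.64 ± 0.11), the disulphide isomerase Txndc5 (-0.58 ± 0.09) and the elongation factors Eaf2 (-0.51 ± 0.07) and Ell2 (-0.38 ± 0.06). Of 10 surface genes 4 rose and 2 fell, or 3 and 4 with scaling. Ly6c2 fell (-0.55 ± 0.15), though not without WT replicate 2 (-0.45), and has close relatives in the Ly6 cluster whose reads may not be separable. Cxcr4, which draws plasma cells to the marrow, rose by 0.50 ± 0.06 and Cd93 by 0.32 ± 0.06. The wider set of endoplasmic reticulum chaperones and secretion factors had a median of 0.00, with 5 of 59 higher and 2 lower (4 and 19 with scaling, and 3 to 7 higher with single libraries left out, 3 of them without WT 1, WT 2 or PU1_KI 3); Hspa5, its most abundant chaperone, stood at 293 ± 8.52 and 294 ± 15.6 RPKM.

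Signalling from the B cell receptor was one of the groups in which many members rose a little: 18 of 36 were higher and 1 lower, 17 and 3 with scaling, with a median of 0.19. Libraries 1 and 2 gave 8 and 1, and libraries 3 to 5 gave 21 and 1. The steepest was Fcrl5, an Fc receptor-like inhibitor of the receptor, at 5.25, 5.53, 6.03 and 5.78 RPKM in WT and 11.1, 11.2, 13.4, 13.7 and 12.2 in PU1_KI (1.06 ± 0.07, adjusted p = 3.21e-08). Malt1, a protease of the complex that links the receptor to NF-kB, rose from 9.19, 9.25, 9.2 and 9.73 to 14.3, 14.5, 14.7, 15.1 and 15.1 RPKM (0.63 ± 0.05, adjusted p = 2.54e-07), with no overlap. Its partner Bcl10 did not pass, at 23.6 ± 1.41 and 24.7 ± 2.18 RPKM. Fcgr2b, the inhibitory IgG receptor, rose from 18.5, 20.4, 22.7 and 20.8 to 28.7, 32.4, 34.7, 34.1 and 30.3 RPKM (0.63 ± 0.07, adjusted p = 8.21e-06). So rises included activators such as Rasgrp3 (0.68 ± 0.06) and Pik3ap1 (0.51 ± 0.07) as well as inhibitors such as Cd72 (0.31 ± 0.07) and Fcrl1 (0.48 ± 0.07). Ms4a1, the gene of CD20, was the 1 that fell, from 131, 143, 153 and 148 to 108, 122, 118, 123 and 122 RPKM (-0.28 ± 0.07, adjusted p = 0.00486). The receptor chains Cd79a and Cd79b did not pass (0.05 ± 0.07 and 0.05 ± 0.07).

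Genes of class II antigen presentation changed little, and those of class I rose in part. In the class II group 3 of 20 rose and 0 fell, 3 and 1 with scaling, and the 3 were Ctss, Ctsb and Rfxank. Without WT 1 the count was 1 and without PU1_KI 1 it was 7, and Ctss lost its call without any of 7 libraries (0.16 to 0.21). The chain H2-Aa differed by 0.05 ± 0.07 and the invariant chain Cd74 by 0.16 ± 0.08, neither with a call. In the class I group 8 of 23 rose and 0 fell, 8 and 2 with scaling, among them the peptide transporter Tap1 (0.43 ± 0.08) and the immunoproteasome subunits Psmb8 (0.28 ± 0.06) and Psmb9 (0.33 ± 0.07). The class I median was 0.21 (0.13 with scaling), where that of all rows was 0.07. With libraries 1 and 2 the class I counts were 3 and 0, and with libraries 3 to 5 they were 9 and 0.

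Most genes of the interferon response rose. Of 70 tested genes, from 85 in the table, 54 rose and 0 fell, 49 and 1 with scaling, and the median was 0.38 (0.30 with scaling) against 0.07 for all rows. Libraries 1 and 2 gave 35 and 0, and libraries 3 to 5 gave 59 and 0. By role, 31 of 35 antiviral effectors (29 with scaling), 9 of 12 interferon-induced GTPases (8), 4 of 8 sensors (3, with 1 lower) and 10 of 15 signalling genes (9) rose, and none of the 6 interferon genes in the table passed the filter. Ifi44, Parp12 and Tgtp2 among the 70 were below 1 RPKM in every WT library. Rsad2, the antiviral enzyme viperin, stood at 1.16, 1.23, 1.32 and 1.41 RPKM in WT and 3.54, 3.96, 3.43, 3.77 and 4.06 in PU1_KI (1.26 ± 0.07, adjusted p = 2.45e-09). Oas2, which makes the signal that activates RNase L, stood at 4.78, 5.17, 5.31 and 4.93 and 9.87, 11, 10.4, 10.6 and 11.8 RPKM (1.02 ± 0.06, adjusted p = 8.01e-09). Irf7, the factor that amplifies interferon production, rose from 24.4, 30.6, 31.8 and 30.2 to 46.7, 51.9, 49.5, 54.2 and 49.8 RPKM (0.78 ± 0.08, adjusted p = 1.24e-06). In these 3 genes the groups were fully apart. Smaller rises were seen for the transducers Stat2 (0.54 ± 0.06) and Irf9 (0.28 ± 0.06), the RNA sensors Ifih1 (0.61 ± 0.07) and Ddx58 (0.43 ± 0.06), and the GTPase Gbp5 (0.67 ± 0.07). The Oas, Ifit and Gbp genes have close paralogues, so the split between members is uncertain.

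Against miR155_KO, 57 of the 70 interferon genes were higher in PU1_KI and 5 lower (52 and 10 with scaling), with a median difference of 0.74. Of all rows 47.5% were higher and 16.2% lower (30.9% and 31.0% with scaling). Irf7, for example, was at 14.9 ± 0.763 RPKM in miR155_KO, 1.73 ± 0.07 below PU1_KI on the log2 scale in the direct test (adjusted p = 1.05e-13), and Mx1 at 1.3 ± 0.0906 RPKM against 6.97 ± 0.606 in PU1_KI.

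Promoters of these genes can be read for the element that interferon factors bind. The element, a pair of GAAA in the same orientation with any 2 bases between them, was searched on both strands from 250 bases before to 50 after the start site. It was in 21 of the 41 promoters found for the interferon genes that rose (51.2%) and in 5 of 13 for those not called (38.5%), against 3.99% of 27025 promoters in RefSeq (GRCm38.p6). The promoters of Rsad2 (chr12:26456403-26456702, minus strand) and Ifit1 (chr19:34640639-34640938, plus strand) are shown for the position of the match, in capitals; it lies 120 and 104 bases before the start site, and Ifit1 has it in 2 copies. A match is a description of the letters and does not show that a factor was bound.
Rsad2 promoter: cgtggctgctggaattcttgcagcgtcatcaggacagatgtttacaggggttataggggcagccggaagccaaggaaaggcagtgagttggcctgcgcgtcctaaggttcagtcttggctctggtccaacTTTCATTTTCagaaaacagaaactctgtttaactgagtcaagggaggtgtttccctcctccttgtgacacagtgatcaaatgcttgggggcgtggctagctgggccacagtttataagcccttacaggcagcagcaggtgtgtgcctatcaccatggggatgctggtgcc
Ifit1 promoter: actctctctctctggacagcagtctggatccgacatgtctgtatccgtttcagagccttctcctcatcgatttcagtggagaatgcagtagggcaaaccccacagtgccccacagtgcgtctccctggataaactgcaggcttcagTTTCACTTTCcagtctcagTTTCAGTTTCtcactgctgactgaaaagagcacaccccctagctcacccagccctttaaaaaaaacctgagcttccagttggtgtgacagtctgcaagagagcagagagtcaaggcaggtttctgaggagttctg

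NF-kB genes rose in a similar share, 20 of 32 with 0 lower (19 and 2 with scaling), and had a median of 0.32. Libraries 1 and 2 gave 12 and 0, and libraries 3 to 5 gave 22 and 0. Of the subunits, Rel (0.37 ± 0.06), Nfkb2 (0.40 ± 0.09) and Relb (0.42 ± 0.07) rose and Nfkb1 did not pass (0.20 ± 0.07). Inhibitors and feedback genes made up 8 of the risers (7 with scaling): Tnfaip3, the deubiquitinase A20 that ends the signal, went from 35.5, 37.9, 38 and 40.9 to 50.0, 53.3, 54.2, 55.5 and 57.1 RPKM (0.50 ± 0.06, adjusted p = 1.69e-05), and Nfkbia and Bcl3 rose by 0.61 ± 0.08 and 0.62 ± 0.10. None of the 4 kinases was called as deposited, and 2 fell with scaling. Among 13 targets 9 rose in either scaling, with Ccl5, a chemokine for T cells, at 10.9, 19.8, 18.1 and 18.5 RPKM in WT and 40.4, 45.6, 43.5, 49.3 and 48.2 in PU1_KI (1.44 ± 0.13, adjusted p = 5.35e-07). Upstream, 11 of 27 Toll-like receptor genes rose and 0 fell (10 and 3 with scaling), led by Wdfy1, the adaptor Ticam1 (0.55 ± 0.08) and the ligase Peli1 (0.46 ± 0.06). Tlr4, the receptor of LPS, did not pass the filter.

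Cytokine signalling showed rises in both transducers and brakes. Of 20 kinases, STATs and feedback inhibitors 12 rose and 1 fell (10 and 1 with scaling). Jak2 (0.52 ± 0.06), Stat5a (0.52 ± 0.07) and Stat3 (0.37 ± 0.07) rose, and so did the inhibitors Socs3 (1.12 ± 0.09) and Cish (0.56 ± 0.07), while Socs2 fell (-0.30 ± 0.06). Among cytokines 6 of 13 rose and 3 fell (5 and 4 with scaling). Il6 rose from 3.59, 2.98, 3.15 and 3.55 to 5.88, 7.48, 6.31, 8.77 and 8.0 RPKM (1.02 ± 0.10, adjusted p = 9.74e-07) and Il10 from 0.934, 1.45, 1.77 and 1.32 to 2.1, 2.64, 3.0, 2.83 and 2.11 RPKM (0.71 ± 0.12, adjusted p = 0.000332), each without overlap. The 3 that fell all encode ligands of the tumour necrosis factor and lymphotoxin locus: Tnf went from 6.6, 8.12, 6.28 and 7.55 to 4.41, 5.0, 4.84, 4.47 and 4.28 RPKM (-0.58 ± 0.07, adjusted p = 2.58e-05), Lta fell by 0.39 ± 0.08 and Ltb by 0.26 ± 0.09 on the log2 scale, Ltb with no call without any 1 of WT 2 to 4 or PU1_KI 1, 2 and 5 (-0.27 to -0.18). Receptors were mixed, with 9 of 24 higher and 3 lower (9 and 6 with scaling). Il2rb, the shared chain for IL-2 and IL-15, fell from 3.64, 4.48, 4.17 and 4.47 to 2.24, 2.54, 2.16, 2.64 and 2.42 RPKM (-0.69 ± 0.07, adjusted p = 3.07e-06), and Il10ra (0.72 ± 0.07) and Flt3 (0.70 ± 0.08) rose. Csf2rb2 among these receptors and Slamf9 among the costimulatory genes below reached 1 RPKM only in PU1_KI.

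Genes for migration and cell contact changed in both directions. Of 18 chemokines and migration receptors 12 rose and 0 fell (11 and 1 with scaling). Ccr7, which guides B cells to the T cell zone, went from 15.7, 17.7, 17.4 and 20.3 to 27.7, 32.4, 32.4, 35.4 and 34.6 RPKM (0.85 ± 0.08, adjusted p = 1.01e-06), and Cxcr5, which guides them to follicles, rose by 0.46 ± 0.08. In the semaphorin and plexin group 6 of 10 rose and 1 fell in either scaling, and libraries 1 and 2 alone gave the same counts. Sema4b fell from 13.7, 15.7, 15.5 and 13.7 to 8.95, 9.43, 9.92, 10.2 and 8.78 RPKM (-0.60 ± 0.06, adjusted p = 4.54e-06), opposite to Sema4a and Sema7a (1.06 ± 0.09). Costimulatory and TNF family genes were higher in 13 of 28 and lower in 2 (12 and 3 with scaling). Cd80, a ligand of CD28 on T cells, rose from 4.19, 4.32, 4.36 and 5.29 to 9.05, 10.1, 10.1, 10.9 and 11.2 RPKM (1.10 ± 0.07, adjusted p = 3.62e-08), Slamf1 rose by 1.11 ± 0.07, and Pdcd1lg2, the inhibitory ligand PD-L2, fell by 0.58 ± 0.06 on the log2 scale. Of 19 adhesion genes 8 rose (5 without WT 1 or PU1_KI 4) and 3 fell (7 and 4 with scaling), the 3 as deposited being Cd96, the integrin chain Itga4 (-0.41 ± 0.06) and Icam2 (-0.37 ± 0.06). Adhesion counts were 1 higher and 3 lower with libraries 1 and 2, and 8 and 3 with libraries 3 to 5.

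Receptors best known from myeloid cells, in which PU.1 is a main regulator, were mostly low in these B cells. Of 52 in the table, 19 were tested, 15 were called higher and 2 lower (14 and 3 with scaling), and 6 of the 19 were tested only through the PU1_KI libraries, so that this count says nothing about the list. Cd300lf, an inhibitory receptor, stood at 2.47, 3.05, 2.87 and 3.24 RPKM in WT and 9.08, 9.35, 9.13, 9.91 and 10.6 in PU1_KI (1.57 ± 0.07, adjusted p = 2.30e-10). Lrrc25, a surface protein of myeloid cells, stood at 1.73, 2.14, 1.71 and 1.92 and 5.42, 5.49, 7.01, 6.19 and 6.12 RPKM (1.46 ± 0.08, adjusted p = 2.21e-09). Fcgr4, an activating IgG receptor, was at 0.65, 0.63, 0.63 and 1.04 RPKM in WT and 2.01, 2.78, 2.59, 2.53 and 2.63 in PU1_KI (1.29 ± 0.10, adjusted p = 1.40e-07). The mutant and WT values were fully apart in all 3. Fcgr4 reached 1 RPKM in WT replicate 4 alone, so it passed the filter through the PU1_KI libraries, and its call is no support for a direction. Csf2rb, the common chain of the IL-3 and GM-CSF receptors, rose by 0.70 ± 0.07; its near copy Csf2rb2 makes the split of reads uncertain.

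Markers that define macrophages summed to 7.56 to 8.90 RPKM in WT and 11.5 to 13.2 in PU1_KI. Of these 19 markers 18 stayed below the filter, at a mean of 0.989 RPKM or less in WT and 0.856 or less in PU1_KI. With no filter 3 of these markers were called higher and 0 lower. Their part in the counts of myeloid-type receptors was not tested. The marker that passed the filter was Cd68, a lysosomal protein, at 6.15, 7.03, 6.77 and 7.25 RPKM in WT and 10.2, 10.9, 11.3, 10.5 and 11.6 in PU1_KI (0.64 ± 0.06, adjusted p = 1.20e-06). The sum of dendritic cell markers was 253 to 342 RPKM in WT and 457 to 553 in PU1_KI, and 7 of 9 tested markers rose and 0 fell (6 and 1 with scaling). These included Ccl22, Ccr7, Flt3 and Bst2, which B cells also express; their 6 other markers had means of 0.0338 RPKM or less in either group. The phagocyte NADPH oxidase, which B cells also use, had 4 of 7 subunits higher and 0 lower (4 and 1 with scaling). Ncf1, the organising subunit p47phox, rose from 96.3, 109, 109 and 110.5 to 141, 155, 161, 177 and 169 RPKM (0.59 ± 0.07, adjusted p = 1.83e-05), and Cybb (0.33 ± 0.06) and Rac2 (0.30 ± 0.08) were also among those that rose.

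The promoters of risers were searched for GAGGAAGT, a core sequence of the kind PU.1 binds, on both strands in the same window. It was in 16 of the 149 promoters found for rows that rose by 1.5-fold or more and in both scalings (10.7%), in 69 of 1342 for all rows that rose in both (5.14%), in 14 of 323 for rows that fell in both (4.33%) and in 300 of 7604 for all rows tested (3.95%). Cd300lf (chr11:115133943-115134242, minus strand) and Fcgr4 (chr1:171018676-171018975, plus strand) carry it, in capitals, at the start site itself and 24 bases before it. The other motifs searched were in these shares of the same 149 promoters and of all rows tested: the interferon element in 13.4% against 3.91%, TGATGNAA (a core bound by ATF4) in 9.40% against 2.68%, an NF-kB motif (GGGA and TCC with any 3 bases between them) in 10.1% against 6.13% and ACGTG (a core bound by hypoxia-inducible factors) in 26.8% against 31.0%. The share was thus higher than in all rows for each motif but ACGTG, and not for the PU.1 core alone. Rows that reached 1 RPKM in no WT library were not left out of these shares. The motifs were chosen with the results known, and binding was not measured.
Cd300lf promoter: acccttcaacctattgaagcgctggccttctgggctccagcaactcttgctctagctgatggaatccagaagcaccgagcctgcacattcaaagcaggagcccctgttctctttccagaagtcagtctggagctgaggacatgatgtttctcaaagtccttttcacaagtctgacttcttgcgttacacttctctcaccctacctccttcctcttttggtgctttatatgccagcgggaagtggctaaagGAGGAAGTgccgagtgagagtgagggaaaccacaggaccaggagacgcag
Fcgr4 promoter: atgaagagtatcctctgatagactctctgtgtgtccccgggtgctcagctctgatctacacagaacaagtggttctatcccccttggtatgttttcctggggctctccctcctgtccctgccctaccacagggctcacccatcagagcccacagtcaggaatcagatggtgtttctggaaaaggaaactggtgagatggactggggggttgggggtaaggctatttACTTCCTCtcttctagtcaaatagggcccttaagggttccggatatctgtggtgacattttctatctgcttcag

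Genes for and against apoptosis rose. In the BCL2 and caspase group 13 of 26 rose and 0 fell, 13 and 2 with scaling, with libraries 1 and 2 at 6 and 0 and libraries 3 to 5 at 14 and 0. Bcl2a1b, a prosurvival member, rose from 72.2, 79.5, 72.3 and 78.7 to 135, 159.8, 139, 159 and 164 RPKM (0.99 ± 0.07, adjusted p = 7.29e-08); its near-identical copy Bcl2a1d (0.87 ± 0.07) makes the 2 rows hard to tell apart. Pmaip1, the killer protein NOXA, rose from 10.7, 9.89, 10.4 and 11.9 to 19.4, 22.3, 21.5, 25.1 and 23.3 RPKM (1.02 ± 0.07, adjusted p = 7.29e-08), and its 3′ UTR holds a miR-155 8mer site. Cflar, which blocks caspase-8, rose by 0.60 ± 0.06, and Mcl1, the most abundant, differed by 0.05 ± 0.06 with no call. Of 22 p53 targets 8 rose and 1 fell (7 and 3 with scaling), with Cdkn1a up by 0.46 ± 0.08 and Trp53inp1 down (-0.32 ± 0.05).

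The integrated stress response, in which ATF4 induces genes for amino acid supply, rose in nearly all its members. Of 13 tested 11 rose and 0 fell under both scalings, and the median was 0.41. Libraries 1 and 2 gave 4 and 0, and libraries 3 to 5 gave 11 and 0. Nupr1, a small stress-induced chromatin protein, stood at 1.04, 0.866, 1.3 and 0.962 RPKM in WT and 1.93, 2.15, 2.53, 2.56 and 2.76 in PU1_KI (0.90 ± 0.09, adjusted p = 3.38e-06). Ddit3, the gene of CHOP, rose from 7.64, 7.73, 7.88 and 8.73 to 10.8, 10.6, 12.3, 12.7 and 11.5 RPKM (0.51 ± 0.07, adjusted p = 3.13e-05). In the wider amino acid group 16 of 44 rose and 1 fell (15 and 6 with scaling). Asns, which makes asparagine, rose from 15.2, 14.4, 14.4 and 15.9 to 21.4, 21.4, 24.4, 29.5 and 25.5 RPKM (0.68 ± 0.08, adjusted p = 1.46e-05), with Cth (0.72 ± 0.10), the transporter Slc7a3 (0.64 ± 0.08) and the transfer RNA synthetase Cars (0.42 ± 0.08). The groups were apart in Nupr1, Ddit3 and Asns. Against miR155_KO, 8 of the 13 were lower in PU1_KI and 4 higher (9 and 3 with scaling), and Nupr1 stood at 13.1 ± 1.38 RPKM in miR155_KO (-2.24 ± 0.09, adjusted p = 1.61e-13). Of all rows 16.2% were lower and 47.5% higher in that comparison (31.0% and 30.9% with scaling).

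TGATGNAA, a core of the composite element that ATF4 binds with C/EBP factors, was in 4 of the 11 promoters of the stress genes that rose and in 4.51% of all promoters (2.68% of those of rows tested). The promoter of Nupr1 (chr7:126625421-126625720, minus strand) has it, in capitals, 110 bases before the start site.
Nupr1 promoter: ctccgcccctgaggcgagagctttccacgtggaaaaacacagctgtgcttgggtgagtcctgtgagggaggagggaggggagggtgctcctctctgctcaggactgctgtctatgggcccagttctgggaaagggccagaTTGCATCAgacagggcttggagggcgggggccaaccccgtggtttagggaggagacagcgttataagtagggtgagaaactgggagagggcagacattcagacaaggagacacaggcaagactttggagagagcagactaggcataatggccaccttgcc

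Glycolysis and the targets of hypoxia-inducible factor rose as well. For glycolysis 19 of 30 rose and 0 fell (18 and 0 with scaling), with a median of 0.35, and libraries 1 and 2 gave 13 and 0 and libraries 3 to 5 gave 19 and 0. Aldoa, an enzyme of its middle steps, held 277, 269.6, 284 and 311 RPKM in WT and 416, 423, 453, 448 and 426 in PU1_KI (0.60 ± 0.06, adjusted p = 4.10e-06). Slc16a3, which exports lactate, held 4.73, 5.36, 6.65 and 6.69 and 10.2, 10.6, 9.88, 10.5 and 8.7 RPKM (0.73 ± 0.09, adjusted p = 1.62e-05). Of 20 hypoxia targets 16 rose and 1 fell (11 and 1 with scaling); Ankrd37, a gene known to be induced by low oxygen, rose from 4.74, 4.4, 4.85 and 4.55 to 10.3, 9.12, 9.41, 10.1 and 7.77 RPKM (0.93 ± 0.07, adjusted p = 1.39e-07), followed by Vegfa (0.79 ± 0.07) and Bnip3 (0.68 ± 0.08), while the factor Hif1a itself fell (-0.22 ± 0.05). None of Aldoa, Slc16a3 and Ankrd37 overlapped between the groups. The core ACGTG was in 9 of 14 promoters of the hypoxia risers and 10 of 18 of the glycolysis risers, where 31.0% of all rows tested have it. Against miR155_KO, 24 of the 30 glycolysis genes were higher in PU1_KI and 4 lower (23 and 5 with scaling), with Slc16a3 at 1.24 ± 0.166 RPKM in miR155_KO. Of all rows 47.5% were higher and 16.2% lower (30.9% and 31.0% with scaling). The pentose phosphate pathway, which branches from glycolysis, had 0 of 9 higher and 0 lower as deposited, and 0 higher and 4 lower after scaling.

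Cholesterol and lysosome genes rose in part. Of 31 cholesterol genes 14 rose and 0 fell (10 and 2 with scaling), among them the exporter Abcg1 (0.49 ± 0.06) and the enzyme Pmvk (0.47 ± 0.08), and libraries 1 and 2 gave 5 and 0; without WT 1 or PU1_KI 3 there were 9 risers. In fatty acid synthesis 3 of 16 rose and 0 fell (2 and 3 with scaling); libraries 1 and 2 gave 0 risers, libraries 3 to 5 gave 7, and without PU1_KI 1 there were 8. Of 54 lysosomal genes 20 rose and 1 fell (19 and 7 with scaling), and libraries 1 and 2 gave 5 and 1; without WT 1 there were 13 risers. Psap, the precursor of the saposins that help degrade sphingolipids, rose most, from 128, 139, 144 and 148 to 204, 217, 225, 239 and 210.5 RPKM (0.65 ± 0.07, adjusted p = 2.95e-06), with no overlap.

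**Figure D4:**
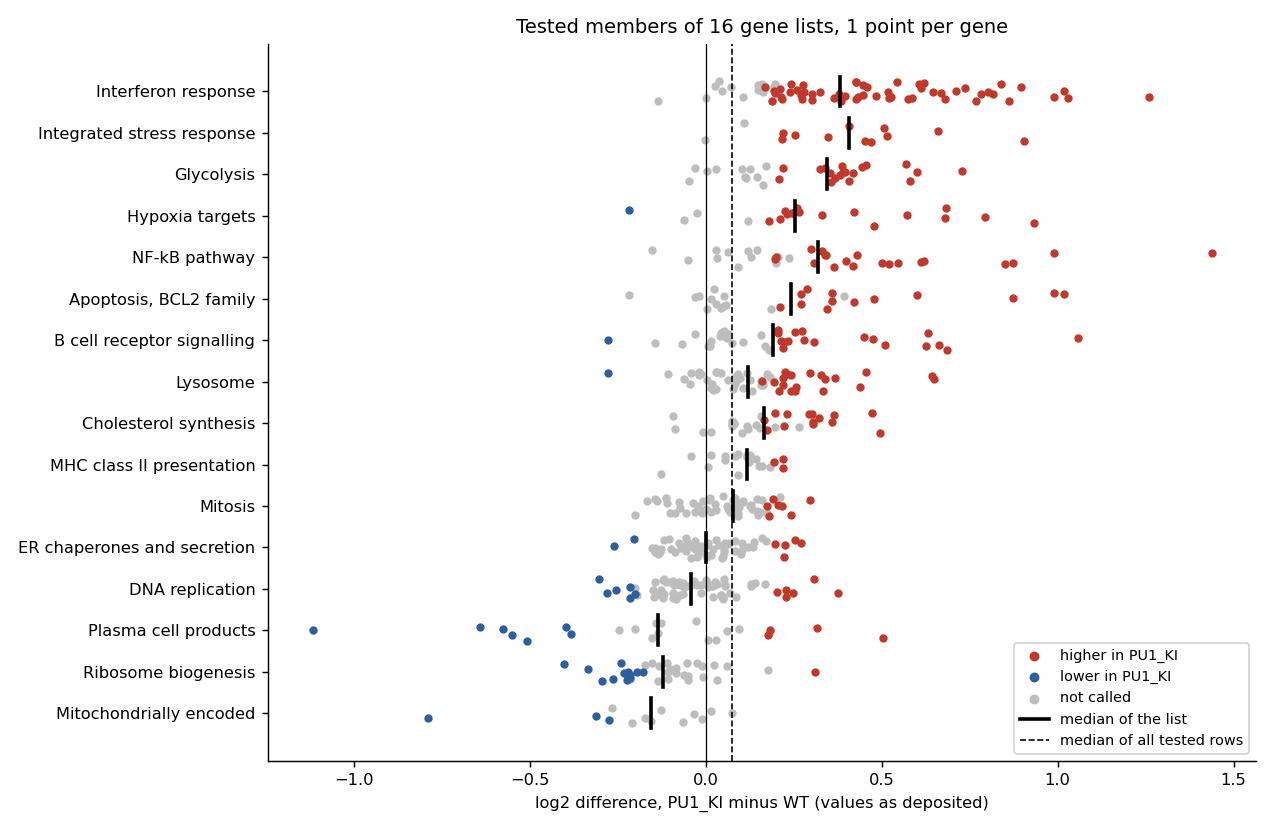
Log2 difference, PU1_KI minus WT as deposited (x axis), of each tested member of 16 gene lists, 1 point per gene (red called higher, blue called lower, grey not called), with a black bar at each list's median and a dashed line at the median of all rows, 0.07. The interferon list and the stress response have medians of 0.38 and 0.41. Left of the dashed line lie the medians of mitochondrially encoded genes, plasma cell products, ribosome biogenesis, DNA replication and endoplasmic reticulum chaperones and secretion.

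Cell cycle genes are described by phase, with no test between phases. Among cyclins of G1 and inhibitors of cyclin-dependent kinases 10 of 24 rose and 3 fell (9 and 6 with scaling). Cdkn2a, which encodes p16 and ARF, stood at 1.05, 2.83, 3.55 and 3.19 RPKM in WT and 6.31, 6.95, 7.14, 8.75 and 4.73 in PU1_KI (1.27 ± 0.21, adjusted p = 0.000367). Cdkn1b, the inhibitor p27, rose from 7.8, 8.53, 9.06 and 8.72 to 12.1, 12.4, 12.2, 13.3 and 12.9 RPKM (0.54 ± 0.06, adjusted p = 4.56e-06), and so did the cyclin Ccnd2, from 58.5, 60.9, 61.1 and 67.2 to 89.5, 92.5, 108, 119 and 97.7 RPKM (0.70 ± 0.08, adjusted p = 8.70e-06). Cdkn2b reached 1 RPKM only in PU1_KI. The S phase cyclin Ccne2 was among the 3 that fell (-0.31 ± 0.06), 5 without PU1_KI 4. On the log2 scale the values of Cdkn2a spread more widely in WT, with replicate 1 the lowest, and all mutant values stayed above the WT range.

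DNA replication had 6 of 67 higher and 6 lower, a median of -0.04, and 6 and 33 with scaling; without WT 2 there were 3 higher, and the lower count was 3 without WT 4 and 10 without PU1_KI 4. The polymerase subunit Pole2 (-0.30 ± 0.07) and Slbp, which binds histone messages (-0.28 ± 0.06), were among those that fell. Mitosis had 7 of 58 higher and 0 lower (5 and 9 with scaling), while libraries 1 and 2 gave 0 and 0 and libraries 3 to 5 gave 14 and 0; leaving out any of WT 1, WT 2 and PU1_KI 3 to 5 left 1 to 3 risers. Ribosome biogenesis fell in 13 of 36 genes and rose in 1 (27 and 1 with scaling), with a median of -0.12; libraries 1 and 2 gave 13 lower and libraries 3 to 5 gave 4, and without WT 2, WT 4 or PU1_KI 2 there were 6. Gnl3, nucleostemin, fell from 27.7, 26.6, 26.8 and 24.9 to 20.3, 18.7, 18.7, 21.5 and 20.3 RPKM (-0.40 ± 0.06, adjusted p = 0.000126), with the groups apart. Class switch genes were mostly level, with 7 of 37 higher and 1 lower (5 and 11 with scaling), and 4 higher without WT 2. Xrcc5, the end-joining factor Ku80, was the 1 lower, from 4.61, 3.96, 3.85 and 4.63 to 2.08, 2.75, 2.83, 3.04 and 2.65 RPKM (-0.59 ± 0.09, adjusted p = 8.79e-05).

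Some calls among mitochondrially encoded and immediate early genes were lost when single libraries were left out. Of 13 mitochondrial rows 3 fell and 0 rose (8 and 0 with scaling), 7 fell with libraries 1 and 2 and 1 with libraries 3 to 5, and without PU1_KI 2 the count was 1 and without PU1_KI 5 it was 5. mt-Cytb, a subunit of complex III, went from 1184, 1171, 1176 and 1160.5 to 834, 886, 971, 1085 and 1095 RPKM (-0.28 ± 0.08, adjusted p = 0.0214). Its call was lost without WT replicate 2 (-0.28), without PU1_KI replicate 2 (-0.24), with no filter and with libraries 3 to 5 alone (-0.16). mt-Nd6, the complex I subunit read from the opposite strand, is a row of the library pattern, with 59.4, 62.3, 61.9 and 68.5 RPKM in WT and 47.9, 50.4, 29.9, 29 and 29.8 in PU1_KI (-0.79 ± 0.14, adjusted p = 0.000709). Of 18 immediate early genes Ier3 (0.85 ± 0.11) and Atf3 (0.41 ± 0.07) rose, and Fosb (-0.89 ± 0.27), Fos and the phosphatase gene Dusp1 (-0.46 ± 0.11) fell. With scaling 2 rose and 6 fell, libraries 1 and 2 gave 2 and 0, and libraries 3 to 5 gave 2 and 5. The lower count was 1 without any 1 of WT 2 and PU1_KI 2, 4 and 5, and 5 without PU1_KI 1. Fos was at 27.7, 56.6, 59.5 and 32.1 RPKM in WT and 46.3, 21.5, 24.9, 23.8 and 18.9 in PU1_KI (-0.68 ± 0.23, adjusted p = 0.0403), with overlap between the groups. It had no call with libraries 1 and 2 alone (-0.39, adjusted p = 0.51), nor without any 1 of WT 2, WT 3 and PU1_KI 2 to 5 (-0.67 to -0.51).

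Transcripts with miR-155 sites were examined next, since the microRNA itself is intact in PU1_KI. A 3′ UTR was found in GENCODE M21 for 9188 of the 9394 rows. The 268 rows with an 8mer match had a median difference from WT of 0.03 (-0.05 with scaling), the 485 with a 7mer-m8 match 0.05, the 383 with a 7mer-A1 match 0.05 and the 8052 with none 0.08 (0.00 with scaling). Of the 8mer rows 47 rose and 15 fell (32 and 57 with scaling). Sfpi1, whose site is missing in PU1_KI, is counted among the 8mer rows here and in the comparison with miR155_KO below. UTRs with a site are longer, with a median of 2368 bases for 8mer rows and 828 for rows without a site, and the part of length in these medians was not tested.

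Set directly against miR155_KO, in which the microRNA is missing, PU1_KI was lower in 129 of the 268 8mer rows and higher in 47 (187 and 26 with scaling). Of the 8052 rows with no site 1078 were lower and 4107 higher (2202 and 2682 with scaling). Of all rows 16.2% were lower and 47.5% higher (31.0% and 30.9% with scaling). The median of the 8mer rows was -0.14 (-0.26 with scaling), that of the 7mer-m8 and 7mer-A1 rows -0.02 and 0.00, and that of rows with no site 0.16 (0.02 with scaling). Pmaip1 was at 74.9 ± 3.69 RPKM in miR155_KO, a difference of -1.73 ± 0.07 from PU1_KI (adjusted p = 1.01e-13). Jarid2, a subunit of the Polycomb complex, was at 4.24, 4.44, 4.71 and 4.36 RPKM in WT, 5.13, 5.58, 5.64, 5.79 and 5.59 in PU1_KI and 15.1 ± 0.609 in miR155_KO; it rose over WT (0.29 ± 0.06, adjusted p = 0.00112), without passing when only libraries 1 and 2 were used (0.25, adjusted p = 0.0515), and was lower than in miR155_KO (-1.37 ± 0.05). Bach1, a repressor of the haem response, was at 3.84 ± 0.166 RPKM in miR155_KO against 1.38 ± 0.169 in PU1_KI and 1.67 ± 0.102 in WT. Bach1 was called lower than WT (-0.21 ± 0.07, adjusted p = 0.0483), a call lost without any 1 of 7 libraries (-0.22 to -0.19). The 38 tested genes of a list of published miR-155 targets had 5 higher and 7 lower than WT (4 and 13 with scaling), Sfpi1 among the 5. Against miR155_KO 25 of these 38 were lower and 8 higher (29 and 3 with scaling), beside the shares of all rows given above. With single libraries left out 4 to 9 were higher than WT, the 9 without PU1_KI 1, and 3 to 6 lower, with 3 without PU1_KI 2 or 3.

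**Figure D5:**
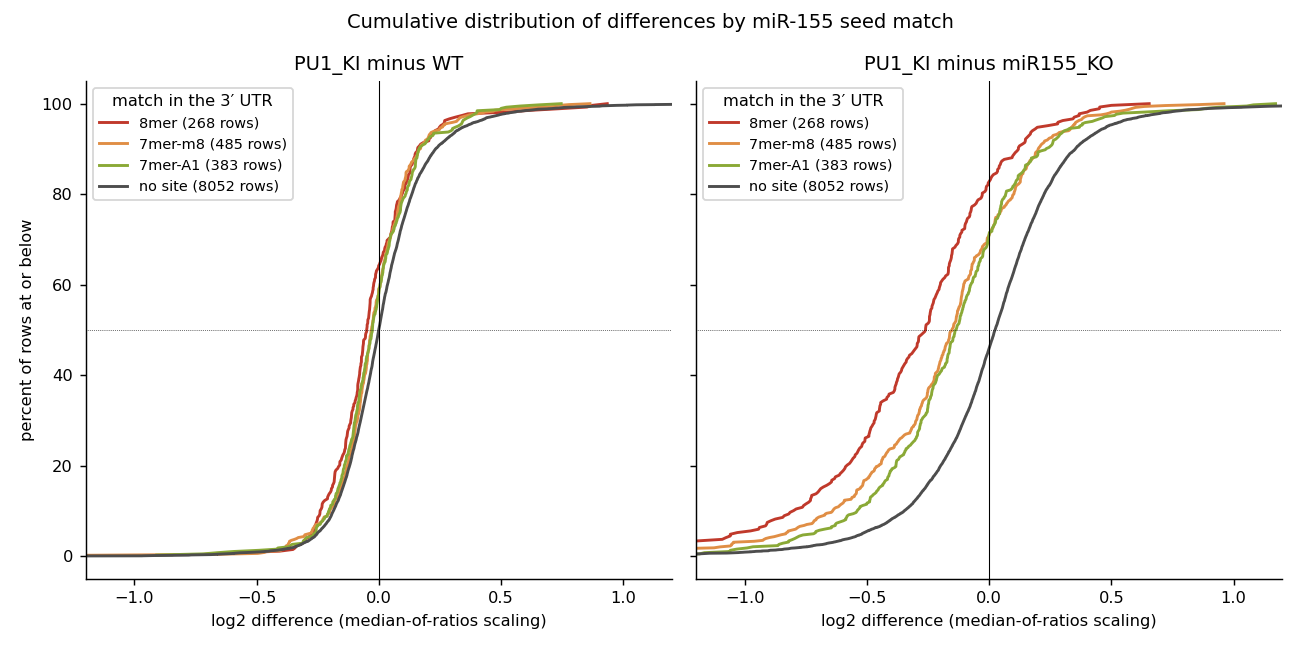
Cumulative percent of rows (y axis) at or below each log2 difference after median-of-ratios scaling (x axis), by the miR-155 match in the 3′ UTR, for PU1_KI minus WT (left) and PU1_KI minus miR155_KO (right). On the left the 4 curves lie close, with medians from -0.05 to 0.00; on the right the 8mer curve is shifted to a median of -0.26 while rows without a site stay at 0.02.

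Over all rows, PU1_KI differed from miR155_KO in 5989 rows (63.8%), with 4466 higher (47.5%) and 1523 lower (16.2%), or 5808 rows (61.8%), 2899 higher (30.9%) and 2909 lower (31.0%), with scaling. Among the 2043 rows that rose over WT, 851 were also higher than in miR155_KO, 499 lower and 693 not called in that direct test (500, 685 and 482 of 1667 with scaling). Ccl22 was lower in PU1_KI than in miR155_KO (-0.78 ± 0.12, adjusted p = 1.54e-05), Sema4a higher by 0.83 ± 0.07 (adjusted p = 8.74e-09) and Sfpi1 higher by 0.49 ± 0.08 (adjusted p = 1.94e-05). Of the 411 rows that fell, 83 were lower in PU1_KI than in miR155_KO, 214 higher and 114 not called (374, 694 and 512 of 1580 with scaling). Erg was among the 214, at 0.0717 ± 0.023 RPKM in miR155_KO. The rows that rose or fell were picked by the same PU1_KI values that enter the direct test. That choice leans the risers toward higher and the fallers toward lower, so these counts are a description and no support for a direction.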

How the data were processed

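RNA of stimulated spleen B cells was sequenced in 14 libraries, of which 4 WT and 5 PU1_KI are compared here. The 5 miR155_KO libraries serve 1 further comparison, the library pattern and an alternative fit of all 14. The authors deposited RPKM values for 22295 gene rows (22232 genes, 63 repeats), normalised for gene length and total reads per the file headers. Reads were trimmed with Trim Galore and aligned with TopHat to NCBIM37, per the submitters' processing notes. For the versions, the read counter and its strand setting, no value is given in the sources used here. RPKM values are not counts. Steps of low values in 250 genes gave the depth of each library, with 73.2% to 82.0% of values within 0.01 of a whole read, too few for a test on counts.

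Rows with at least 1 RPKM in at least 4 of the 9 libraries were tested with limma 3.58.1 (R 4.3.3, two-sided, intensity trend) on log2(RPKM + 0.5), with Benjamini-Hochberg adjusted p under 0.05 over all 9394 rows. Every "rose", "fell", "higher" and "lower" of a count refers to that test, and each ± in a log2 difference is an SE, in RPKM an SD. A log2 difference on this scale understates changes of low genes. PU1_KI and miR155_KO were compared in 1 fit of 14 libraries. Since both mutants share the WT libraries, their differences from WT were not compared. Replicates are biological per the series' design text. The replicate numbers were not taken to pair the libraries, since the deviations of same-numbered libraries correlated at 0.22, 0.04, 0.37 and 0.11, not all over 0.1, and no label ties a number to a shared source.

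Named genes are Sfpi1 and 10 regulators, the 12 largest rises and falls in both scalings without overlap, the 8 largest in mean RPKM, and the 4 smallest p and 2 highest levels of each list; some of these are not reported here. Other genes given as examples, the motifs and the split of the PU1_KI libraries were chosen after values were seen. The members and the 51 gene lists were chosen with earlier results of these data known. Of 9394 rows 7604 matched a RefSeq promoter. Alternatives were other scalings, pseudocounts, filters and fits, a replicate block and leaving out each library. Tables were made in Python 3.11.15 (pandas 2.3.3, numpy 2.4.6) and figures with matplotlib 3.10.9.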

Additional observations from a re-analysis of the deposited data

Results flagged for a closer look

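Among the 118 sets of library values checked, 6 held a library far from the rest of its genotype, where chance gives about 1 in 20. Malt1 was highest in WT replicate 4, at 9.73 RPKM against 9.25 in the next library. Fcgr4 was also highest in WT replicate 4 (1.04 RPKM, next 0.65), as was Cd80 (5.29 RPKM, next 4.36). Ncf1 was lowest in WT replicate 1, at 96.3 RPKM with the next at 109. Sema4a was lowest in PU1_KI replicate 1 (8.26 RPKM, next 9.37). Fos was highest in PU1_KI replicate 1, at 46.3 RPKM against 24.9 in the next library. Apart from Fos, each of these 6 genes kept its groups apart and its call without any single library.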

How the results depend on the processing

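No named gene reversed under any alternative run. Rows lower in PU1_KI than in WT numbered 411 as deposited, 1580 with median-of-ratios scaling and 1704 with quantile normalisation. They numbered 1527 with immunoglobulin rows left out and each library rescaled to the sum of its other rows. Only 6 immunoglobulin rows had passed the filter, and leaving them out without the rescaling was not tested. Rows at 1.5-fold or more numbered 254, and 137 with a filter of 5 RPKM. With the PU1_KI libraries 1 and 2 only, 921 rows were called and 614 higher. Leaving out 1 library gave 1865 (without WT replicate 2) to 2962 (without PU1_KI replicate 1) rows called, 1535 to 2600 higher, 296 to 525 lower and 236 to 287 at 1.5-fold or more. Sfpi1 kept a log2 difference of 0.86 to 1.00. Against miR155_KO the higher rows fell from 4466 to 2899 with scaling, and the lower rows went from 1523 to 2909 with scaling, 2729 with quantile normalisation and 708 with the filter of 5 RPKM. Leaving out 1 library there gave 5547 to 6257 rows called, 3955 to 4785 higher and 1366 to 1592 lower. With the replicate number as a block, 3843 rows were called, 3112 higher and 731 lower. Not every library correlated best with its own number: WT replicate 1 did so with PU1_KI replicate 5 (0.46). Of 240 called rows that the naming rule or the text picks, 9 lost the call with median-of-ratios scaling, 10 with quantile normalisation, 22 with no filter, 4 with the replicate block, 66 with PU1_KI libraries 1 and 2 only, 11 with libraries 3 to 5 only, 4 to 29 with 1 library left out, and 0 with either other pseudocount. Depth limits rows near 1 RPKM, such as Fcgr4.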

Other observations

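Counts of a few smaller families follow, where 21.7% of all rows were higher and 4.38% lower (17.7% and 16.8% with scaling). With scaling, the counts of small GTPase regulators and Kruppel-like factors were near or below these shares. Among tetraspanins 7 of 15 rose and 0 fell (6 and 2 with scaling), with Tspan33 far ahead of Tspan3 (0.31 ± 0.07) and Cd81 (0.23 ± 0.08). Cd81 had no call with no filter, nor without any 1 of WT 1, WT 2, PU1_KI 3 and PU1_KI 4 (0.18 to 0.24). Tspan33 was tested through its mutant level alone, and libraries 1 and 2 alone called only that 1 tetraspanin. Of 8 tested blood progenitor and endothelial genes, from 30 in the table, 3 rose (Lmo2, Flt3 and Cd93) and 3 fell (Erg, Egfl7 and Hemgn), 3 and 4 with scaling. The same 3 fell with libraries 1 and 2 alone and with libraries 3 to 5 alone. Levels of Hemgn were 4.02 ± 0.259 RPKM in WT, 1.94 ± 0.14 RPKM in PU1_KI and 0.656 ± 0.113 RPKM in miR155_KO. Among 25 regulators of small GTPases 7 rose and 3 fell (4 and 4 with scaling). Sipa1l1, an activating protein for Rap (0.62 ± 0.06), and the exchange factor Arhgef3 (0.56 ± 0.07) rose, and Rasa3 (-0.39 ± 0.07), which inactivates Ras and Rap, fell along with Rasgrp2 (-0.37 ± 0.07), which activates Rap. With single libraries left out the risers numbered 3 to 10, the 3 without WT 2. Of 9 Kruppel-like factors 3 rose and 1 fell (1 and 1 with scaling), with Klf9, a target of glucocorticoid signalling, at 0.51 ± 0.08; without any 1 of 5 libraries there was 1 riser.

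Among 560 tested rows that overlap a row of the opposite strand with a higher level, 95 were called higher and 39 lower with all 5 PU1_KI libraries, 25 and 21 with libraries 1 and 2, and 117 and 34 with libraries 3 to 5. Of all rows tested, 21.7% were called higher and 4.38% lower with all 5 libraries. The shares were 6.54% and 3.27% with libraries 1 and 2, and 27.9% and 3.02% with libraries 3 to 5.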
